A study of Mus musculus with 9 samples.

Results

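In mouse lung, 5 genes of fibrinolysis were followed by their symbols: the plasminogen activators Plau and Plat, the urokinase receptor Plaur, and the inhibitor genes Serpine2 and Serpinb2. All 5 of these, of 23944 genes in the deposited tables, were found, and all 5 passed the filter on low counts. The naive lungs were left lungs of adult wild type C57BL/6 mice labelled as controls. The cold-ischemia grafts were C57BL/6 left lungs that Balb/C recipients received after 24 h of storage at 0 °C, followed by 2 h of reperfusion. The shock grafts came from C57BL/6 donors taken through 4 h of hypovolemic shock at a mean arterial pressure of 15 ± 5 mmHg and 20 h of recovery, before the same 24 h of cold and 2 h of reperfusion in Balb/C mice. Each group had 3 libraries of whole left lung. A graft is therefore donor lung plus whatever recipient blood cells had entered it, and no label tells donor RNA from recipient RNA.

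Fibrinolysis is the enzymatic removal of fibrin clots. Urokinase (Plau) and tissue plasminogen activator (Plat) cut plasminogen into plasmin, the protease that digests fibrin, and the receptor encoded by Plaur holds urokinase on the cell surface. Serpins trap such proteases in an inactive complex: the products of Serpine2 (protease nexin-1) and Serpinb2 (plasminogen activator inhibitor type 2) both inhibit urokinase, and the former also inhibits thrombin. In lung, endothelium is a known source of Plat, and myeloid cells are known to carry Plaur and to induce Serpinb2.

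Total counts ran from 18913487 to 34986276 reads per library. Titles and deposited tables place 2 grafts in opposite groups. Cold-ischemia replicate 2 by its title stands among the shock libraries of the tables, and shock replicate 3 stands among the cold-ischemia libraries. Groups follow the titles here unless the tables are named. A record from a different series is cited in the labels of 3 of 3 naive lungs and 0 of 6 grafts, so batch and transplantation cannot be told apart in any comparison with naive lungs. The defining markers of lung epithelium were present throughout. The summed level of 6 alveolar type 2 genes ran from 23100 to 25700 CPM (read counts scaled to the library size by the TMM method) in naive lungs and from 18000 to 25500 CPM in grafts. The summed level of 8 neutrophil markers ran from 41.9 to 70.1 CPM in naive lungs and from 1000.0 to 2930.0 CPM in grafts. In the contrast of all 6 grafts with naive lungs 8 of 8 rose, beside 22.1% of all genes. The summed level of 6 mesothelial markers ran from 237 to 297 CPM in naive lungs and from 27.0 to 79.6 CPM in grafts. In the same contrast 6 of 6 fell, beside 19.7% of all genes. In cold-ischemia and shock grafts alone 4 and 5 of the 6 fell, beside 13.1% and 17.9%. The part of these cells in the values that follow was not tested.

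All 5 genes are protein-coding, and positions are those of the tables on mm10. Plau lies on the plus strand of chromosome 14 at 20836662 to 20843388, Plat on the plus strand of chromosome 8 at 22757744 to 22782847, and Plaur on the plus strand of chromosome 7 at 24462500 to 24475873. Serpine2 and Serpinb2 both lie on chromosome 1, the former on the minus strand at 79794197 to 79861180 and the latter on the plus strand at 107511423 to 107535478. In GENCODE release M21 only Serpinb2 of these shares its interval with another gene, Serpinb10, annotated on the same strand, where 384 reads were counted over the 9 libraries. How reads of the shared interval were assigned was not tested. The promoters of Plaur and Serpinb2 are shown because these genes rose most, and that of Serpine2 because it did not pass the test in any comparison. RefSeq windows on GRCm38.p6, the assembly of mm10, were available for these 3 genes, and not for Plau and Plat. Each run reads 5′ to 3′ on the strand of its gene and ends before the RefSeq start and before any annotated exon. It covers chr7:24462233-24462482 on the plus strand for Plaur, chr1:107511173-107511422 on the plus strand for Serpinb2 and chr1:79858697-79858915 on the minus strand for Serpine2, whose RefSeq start lies within the interval that the tables give the gene. Capitals mark matches to the motifs searched.
Plaur: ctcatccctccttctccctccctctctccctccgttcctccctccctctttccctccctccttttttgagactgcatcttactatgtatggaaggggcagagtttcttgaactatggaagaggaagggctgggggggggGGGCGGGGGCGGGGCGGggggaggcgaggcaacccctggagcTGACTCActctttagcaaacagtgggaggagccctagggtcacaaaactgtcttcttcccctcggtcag
Serpinb2: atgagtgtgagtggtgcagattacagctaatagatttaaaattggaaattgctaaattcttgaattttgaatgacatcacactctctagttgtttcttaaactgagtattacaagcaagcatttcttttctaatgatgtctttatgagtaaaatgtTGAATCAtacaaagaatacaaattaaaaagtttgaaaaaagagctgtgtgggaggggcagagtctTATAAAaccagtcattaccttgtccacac
Serpine2: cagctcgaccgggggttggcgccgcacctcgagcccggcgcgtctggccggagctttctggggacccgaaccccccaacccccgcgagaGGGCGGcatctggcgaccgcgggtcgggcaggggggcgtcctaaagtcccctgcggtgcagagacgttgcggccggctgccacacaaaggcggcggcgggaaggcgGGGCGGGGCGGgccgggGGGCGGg

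The motifs, searched on both strands over the 250 bases before a start, were AP-1 (TGANTCA), CRE (TGACGTCA), SP1 (GGGCGG), the hypoxia element (ACGTG), the TATA box (TATAAA) and the NF-kB consensus. Plaur held 1 match to the AP-1 letters, 69 bases before its start, and 3 to those of SP1, which partly overlap. Serpinb2 held 1 AP-1 match, 94 bases before the start used here, and 1 TATA box match, 29 bases before it. Counted from another RefSeq start of Serpinb2, these same AP-1 and TATA box matches lay 181 and 116 bases before it. Serpine2 held 6 SP1 matches and no AP-1 match, and 2 of these SP1 matches lie in the bases not shown. Over 32817 RefSeq promoter windows of this length, 6.75% held the AP-1 letters, 32.7% those of SP1 and 12.4% those of the TATA box. None of the 3 windows held the letters of CRE, the hypoxia element or the NF-kB consensus, which were in 1.55%, 16.6% and 7.25% of all windows. A match describes these letters and shows no binding.

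In each comparison with naive lungs, 4 of the 5 genes were called higher and 0 lower, Serpine2 being the 1 not called. Of the 4, Serpinb2 passed the filter on low counts through the grafts, where it is high. The 5 genes were chosen with earlier results of these data known, so this count is a description. A gene was called at an adjusted p under 0.05 by edgeR. Over all 15834 genes tested, 30.6% were called in cold-ischemia grafts (17.5% higher, 13.1% lower) and 39.9% in shock grafts (22.0% higher, 17.9% lower). For the mean of all 6 grafts, a contrast that does not turn on how the grafts are divided, 41.8% of genes were called (22.1% higher, 19.7% lower) and 4 of the 5 were among the higher. The same 4 were higher in every graft than in every naive lung. Over all genes tested, the libraries of 25.1%, 26.4% and 20.9% parted in that way in cold-ischemia, shock and all grafts. In all grafts against naive lungs Plau and Plat each rose by a log2 fold change of 2.75, with SE 0.36 and 0.25, Plaur by 4.13 ± 0.19 and Serpinb2 by 4.51 ± 0.57. Serpine2 was at -0.20 ± 0.17 (edgeR adjusted p = 0.364). The median over the 5 genes was 2.75, beside -0.05 over all genes. The comparisons share the naive libraries, and the 2 graft groups' values against them are not independent of each other. In the authors' deposited table of shock against naive lungs, which uses the tables' grouping, the log2 fold changes were 2.67 for Plau, 2.85 for Plat, 4.04 for Plaur, 4.56 for Serpinb2 and -0.35 for Serpine2.

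Both activators rose in the transplanted lungs. Plau, the urokinase gene, stood at 8.35, 5.88 and 7.16 CPM in naive replicates 1, 2 and 3, at 66.3, 32.3 and 21.0 CPM in the cold-ischemia grafts, and at 66.6, 41.8 and 66.4 CPM in the shock grafts. Every graft lay above every naive lung, and 3 grafts from both groups stood together near the top of the range while cold-ischemia replicates 2 and 3 and shock replicate 2 stood lower. Against naive lungs (7.13 ± 1.24 CPM, SD, n = 3) the log2 fold change of Plau was 2.48 ± 0.38 (SE) in cold-ischemia grafts, with an adjusted p of 0.000781 by edgeR's quasi-likelihood test with Benjamini-Hochberg adjustment over all genes. In shock grafts it was 3.03 ± 0.39 by the same edgeR test (adjusted p = 0.000192).

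Plat, the activator that works best when bound to fibrin, stood at 43.8, 42.7 and 74.8 CPM in the naive replicates. It reached 313, 320 and 241 CPM in the cold-ischemia grafts and 331, 555 and 464 CPM in the shock grafts. The groups did not overlap, and naive replicate 3 was the highest naive lung. The log2 fold change against naive lungs was 2.44 ± 0.27 in cold-ischemia grafts (edgeR adjusted p = 8.49e-05) and 3.06 ± 0.27 in shock grafts (edgeR adjusted p = 1.76e-05). The summed level of 8 endothelial markers, at 3800 to 4130 CPM in naive lungs and 2520 to 4150 CPM in grafts, was lowest in shock replicate 2, the library with the highest Plat. Of these 8 markers 1 rose and 3 fell in the 6 grafts, beside 22.1% and 19.7% of all genes. In whole lung, a change in the number of cells of a type and a change of RNA per cell cannot be told apart.

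Over the 6 grafts the highest level of Plaur was 1.59 times the lowest, against 2.30 to 4.79 times for the other genes that rose. Its naive levels were 38.1, 32.2 and 35.5 CPM. It reached 734, 461 and 572 CPM in cold-ischemia grafts and 651, 643 and 642 CPM in shock grafts. The shock grafts (645 ± 5.16 CPM, SD, n = 3) nearly coincided, while the cold-ischemia grafts (589 ± 137 CPM, n = 3) spread on both sides of them. The log2 fold change was 4.06 ± 0.20 in cold-ischemia grafts (edgeR adjusted p = 7.35e-07) and 4.19 ± 0.20 in shock grafts (edgeR adjusted p = 5.95e-07). By p-value Plaur ranked 12 among the 15834 genes tested in either comparison. Neutrophil markers rose in the same grafts (8 of 8 markers, beside 22.1% of all genes), and their part in the rise of Plaur was not tested. The summed level of 8 monocyte and macrophage markers ran from 287 to 316 CPM in naive lungs and from 271 to 371 CPM in grafts. Single markers moved both ways: in all grafts against naive lungs 2 rose and 2 fell, beside 22.1% and 19.7% of all genes.

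**Figure D1:**
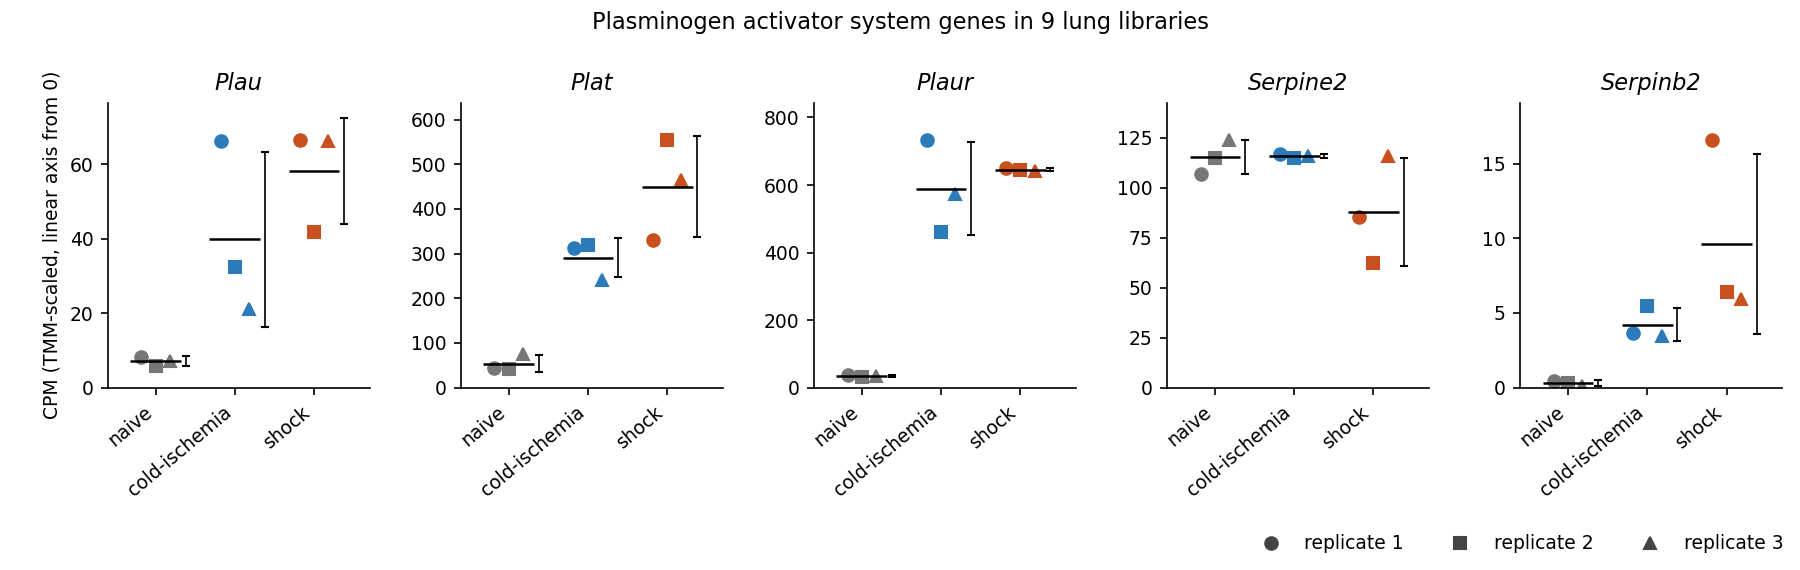
Level of each gene in CPM (vertical axes, linear from 0, scaled separately) for the 3 libraries of each group; points are libraries, horizontal lines group means and bars 1 SD. Plau, Plat, Plaur and Serpinb2 lie higher in all 6 grafts than in the 3 naive lungs, and Serpine2 overlaps between grafts and naive lungs, with its lowest value of 62.1 CPM in shock replicate 2.

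The inhibitor genes parted. Serpinb2 was close to absent from naive lungs, with 16, 7 and 3 reads in replicates 1, 2 and 3, or 0.458, 0.317 and 0.0759 CPM. It reached 3.67, 5.49 and 3.46 CPM in the cold-ischemia grafts and 16.6, 6.38 and 5.92 CPM in the shock grafts. All grafts lay above all naive lungs, and shock replicate 1 stood far above the other 5 grafts. The log2 fold change was 3.91 ± 0.60 in cold-ischemia grafts (edgeR adjusted p = 0.00074) and 5.10 ± 0.61 in shock grafts (edgeR adjusted p = 0.000115). At these naive levels Serpinb2 passed the filter on low counts through the grafts, where it is high, and the size of the rise is loosely set. Leaving out 1 library at a time, the value ran from 3.40 to 4.57 in cold-ischemia grafts, the ends being reached without naive replicate 3 and without naive replicate 1. In shock grafts it ran from 4.46 without shock replicate 1 to 5.75 without naive replicate 1. Shock replicate 1 also had the highest summed level of 7 platelet markers, at 79.1 CPM against 26.2 to 47.8 CPM in the other grafts, while its neutrophil sum of 2390.0 CPM was below that of shock replicate 2. The part of these cells was not tested.

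Serpine2, whose product acts on cell surfaces and matrix, stood at 107.2, 115.2 and 124.3 CPM in naive lungs and at 117.4, 114.9 and 115.6 CPM in cold-ischemia grafts. The log2 fold change between these groups was 0.00 ± 0.19 (edgeR adjusted p = 0.987), with a 95% interval from -0.42 to 0.43. In shock grafts it stood at 85.2, 62.1 and 116 CPM, so that replicates 1 and 2 lay below all other libraries and replicate 3 among them. The log2 fold change against naive lungs was -0.40 ± 0.19 and did not pass (edgeR adjusted p = 0.123). It passed in edgeR fits without shock replicate 3 (-0.65, adjusted p = 0.00973) and with upper-quartile scaling (-0.62, adjusted p = 0.0246), within a range of adjusted p up to 0.323 over the 17 alternatives. Without shock replicate 2 it was -0.20. Upper-quartile scaling also moved the median of all genes in this comparison from -0.06 to -0.28. The same shock replicates 1 and 2 had the lowest summed levels of 8 fibroblast markers, at 1220 and 989 CPM against 1730 to 4440 CPM in the other 7 libraries. Their summed levels of 6 smooth muscle markers were also lowest, at 474 and 325 CPM against 633 to 875 CPM. The part of these cell types in the level of Serpine2 was not tested.

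**Figure D2:**
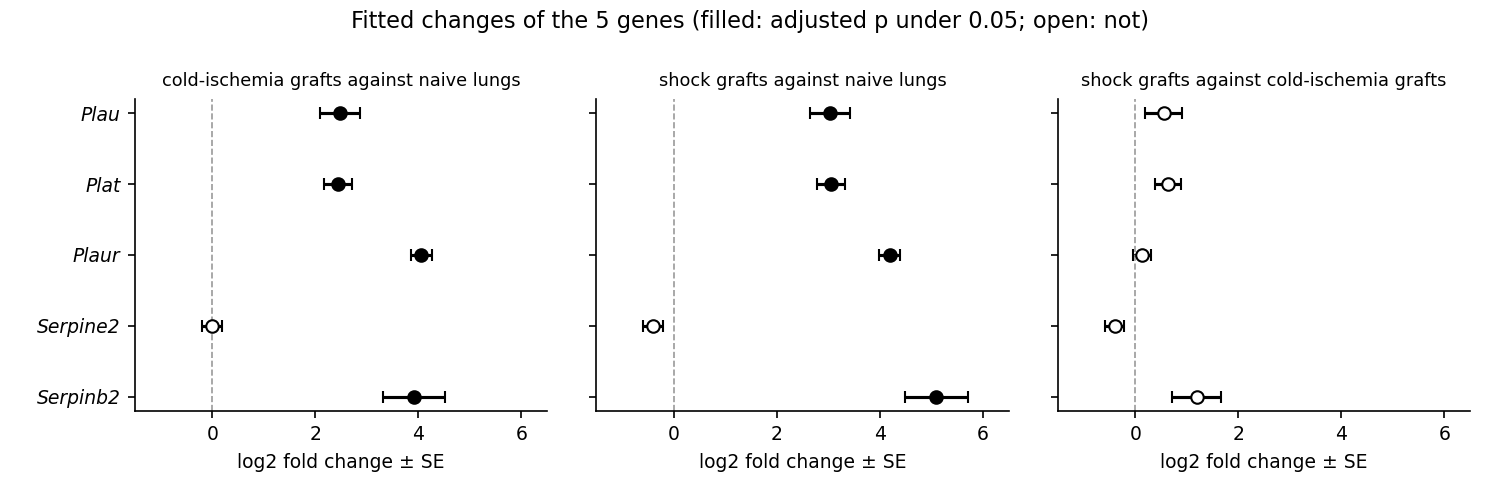
Fitted log2 fold change of each gene (horizontal axis) in the 3 comparisons, with bars of 1 SE; filled points passed an adjusted p of 0.05. In both panels against naive lungs all genes but Serpine2 are filled and lie between 2.44 and 5.10, and in the panel of the graft groups all 5 points are open.

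Levels of different genes can be compared only per length, for which the deposited FPKM (reads scaled to the length of the gene and the total of the library) were used within a library. In naive lungs Serpine2 was the highest of the 5 in every library, at 37.4, 39.7 and 41.4 FPKM. Plaur and Plat followed at 27.0 to 32.2 and 19.7 to 33.4 FPKM, ranges that overlap, with Plat above Plaur in naive replicate 3. Plau lay lower, at 2.93 to 4.21 FPKM, and Serpinb2 lowest, at 0.0430 to 0.271 FPKM. In all 6 grafts the order began with Plaur (312 to 478 FPKM) and Plat (91.9 to 201 FPKM), and Serpinb2 remained lowest (1.67 to 7.47 FPKM). Serpine2 (16.8 to 32.9 FPKM) and Plau (8.63 to 26.5 FPKM) came between. In FPKM, which lack the TMM scaling, Serpine2 was lower in every graft than in every naive lung, whereas in CPM it overlapped. TMM factors were 1.13 to 1.18 in naive lungs and 0.900 to 0.965 in grafts, so this parting depends on the scaling. Plau lay above Serpine2 in shock replicate 1 (25.6 against 22.6 FPKM) and just under it in shock replicate 2 (16.3 against 16.8 FPKM).

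**Figure D3:**
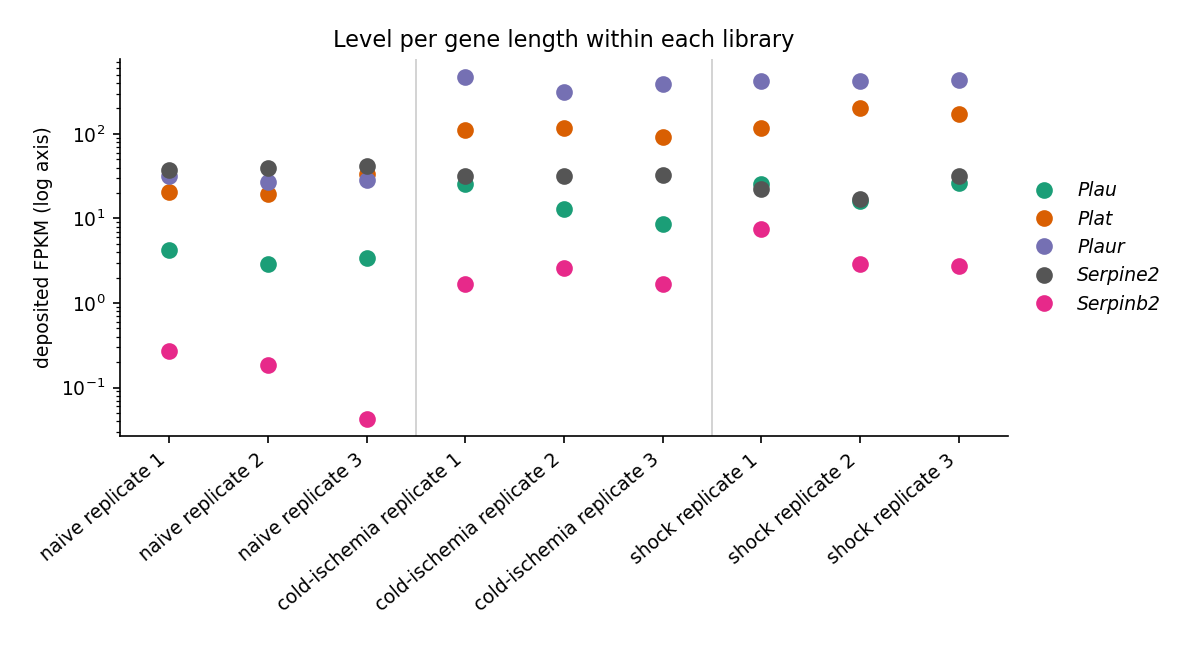
Deposited FPKM of the 5 genes (vertical log axis) in each of the 9 libraries, with thin lines between groups. Serpine2 is the top gene in the 3 naive lungs, and Plaur followed by Plat are the top genes in the 6 grafts.

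The balance between the activators and the 2 serpin genes differed between naive lungs and grafts without overlap. Summed FPKM of Plau and Plat over that of Serpine2 and Serpinb2 was 0.656, 0.569 and 0.889 in the naive lungs. It was 4.17, 3.83 and 2.91 in the cold-ischemia grafts and 4.76, 11.0 and 5.71 in the shock grafts. The serpin genes thus outweighed the activator genes in all 3 naive lungs and the reverse held in all 6 grafts, which describes transcripts and not enzyme activity. Between the serpins, Serpine2 exceeded Serpinb2 by 138 to 964 times in naive lungs and by 3.02 to 19.6 times in grafts. The smallest excess was in shock replicate 1, where Serpinb2 was highest. Between the activators, Plat exceeded Plau by 4.86 to 9.68 times in naive lungs and by 4.37 to 12.3 times in grafts, so these ranges overlapped. The ratio of the receptor to its ligand, Plaur over Plau, was 7.64 to 9.19 in naive lungs and 16.2 to 45.8 in grafts, which did not overlap. These ratios were chosen with earlier results of these data known and carry no test.

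Shock grafts were compared with cold-ischemia grafts to see what donor shock added. None of the 5 genes passed, and of all 15834 genes 0 were called by edgeR (0%), with 1152 at an unadjusted p under 0.05 and 8 called by DESeq2's Wald test. Plat (450.0 ± 113 against 291 ± 43.6 CPM, SD, n = 3 each) and Serpinb2 (9.62 ± 6.02 against 4.21 ± 1.12 CPM, n = 3 each) were higher in every shock graft than in every cold-ischemia graft. The libraries of 5.45% of all tested genes parted in that way. The log2 fold change was 0.63 ± 0.25 for Plat (edgeR adjusted p = 0.671) with a 95% interval from 0.07 to 1.19. For Serpinb2 it was 1.19 ± 0.48 (edgeR adjusted p = 0.671) with an interval from 0.13 to 2.25, and 0.54 without shock replicate 1. Plau was at 0.55 ± 0.36, with an interval from -0.24 to 1.34, and ran from 0.23 without cold-ischemia replicate 3 to 1.13 without cold-ischemia replicate 1. Plaur was at 0.13 ± 0.17, with an interval from -0.25 to 0.51. Serpine2 was at -0.40 ± 0.19 (edgeR adjusted p = 0.671), with an interval from -0.83 to 0.02, and at -0.66 without shock replicate 3 and -0.21 without shock replicate 2.

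With the tables' grouping the log2 fold changes of 3 genes moved most. Plau went to -0.13 and Plaur to -0.15, below 0 in place of above it, and Plat to 0.24, while Serpinb2 was at 1.12 and Serpine2 at -0.41. None of the 5 passed there (edgeR adjusted p from 0.234 to 0.883), although 124 of all genes did. Under that grouping neither Plat nor Serpinb2 parted the groups any longer. Plat was at 339 ± 114 CPM in cold-ischemia grafts and 402 ± 133 CPM in shock grafts (SD, n = 3 each). Serpinb2 was at 5.92 CPM in shock replicate 3, there a cold-ischemia graft, and at 5.49 CPM in cold-ischemia replicate 2, there a shock graft. Without both grafts of disputed group Plat was at 0.67, Serpinb2 at 1.69, Serpine2 at -0.66, Plau at 0.31 and Plaur at -0.01, and none passed (edgeR adjusted p from 0.117 to 0.975). Plat, Serpinb2 and Serpine2 thus kept their signs in both alternatives, Plau in the latter only and Plaur in neither. In the authors' deposited table of the graft groups Serpinb2 was at 0.76, with an adjusted p of 0.142.

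**Figure D4:**
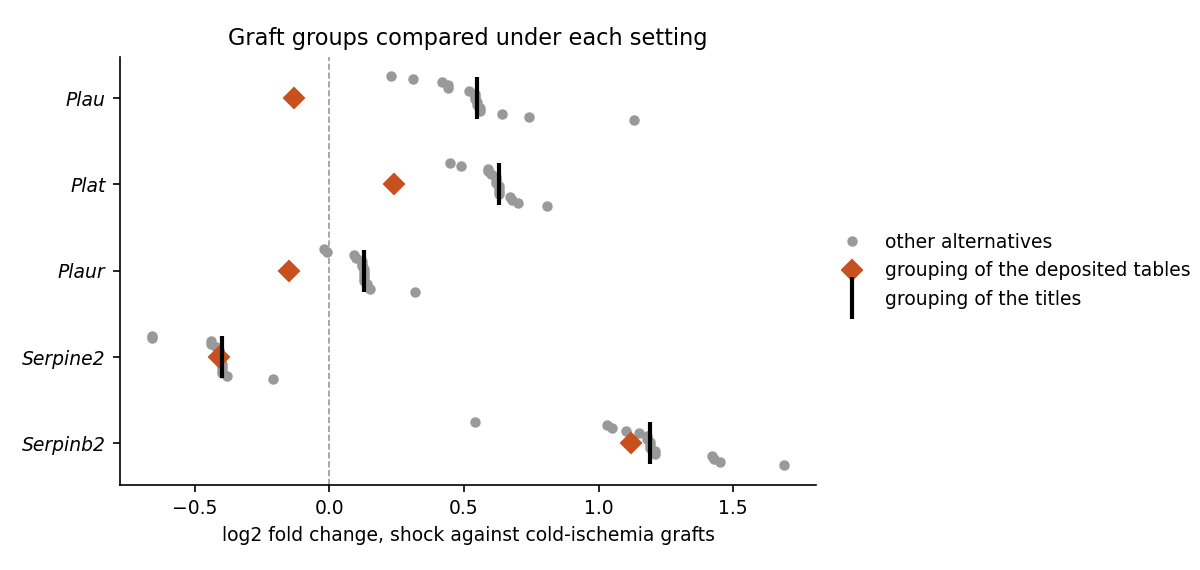
Log2 fold change of shock against cold-ischemia grafts (horizontal axis) for each gene; black bars use the grouping of the titles, diamonds that of the deposited tables and grey points the other alternatives. For Plau and Plaur the diamond lies on the other side of 0 from the bar, and for Serpinb2 all points lie between 0.54 and 1.69.

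Other genes of the pathway were counted in lists. Of 14 genes of plasminogen, its activation and its binding, 11 were tested, and 4 rose and 1 fell in the 6 grafts against naive lungs, with a median log2 fold change of 0.19. Over all genes tested 22.1% rose and 19.7% fell, and the median was -0.05. Plasminogen itself, Plg, a liver product, had 5 reads in the naive lungs and 1 in the grafts and was not tested. The cell-surface plasminogen binders S100a10 (1.66 ± 0.17, edgeR adjusted p = 3.54e-05) and Anxa2 (0.88 ± 0.12), which form a complex, both rose. S100a10 went from 87.6 ± 12.2 to 281 ± 65.2 CPM and Anxa2 from 462 ± 21.8 to 850.0 ± 61.8 CPM (SD, n = 3 and 6). St14, the membrane protease matriptase, rose by 0.69 and Sorl1, a sorting receptor, by 0.74. Vldlr, an endocytic receptor that can clear protease and serpin complexes, fell by 0.70 (edgeR adjusted p = 0.0282). The larger clearance receptor Lrp1 was at 0.11 and did not pass.

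Of 10 genes that inhibit plasmin or its formation, 7 were tested and 1 rose, with a median of 0.16, beside 22.1% of all genes that rose. It was Serpina3n, which encodes an acute phase serpin, at 1.89 ± 0.45 (edgeR adjusted p = 0.00658), with 119 ± 19.5 CPM in naive lungs and 441 ± 241 CPM in grafts. Serping1, the gene of C1 inhibitor, was at -0.14, Spint1, an inhibitor of matriptase, at 0.16, Serpini1, the gene of neuroserpin, at 0.20 and A2m at 0.77, and none of these passed. Serpinf2, the gene of the main plasmin inhibitor of plasma, had 13 reads in naive lungs and 7 in grafts and was not tested. Of 13 other clade B serpins, 11 were in the tables, 7 were tested and 1 rose, with a median of 0.04, again beside 22.1% of all genes. The riser was Serpinb9b, at 2.58 ± 0.53 (edgeR adjusted p = 0.00274), from 0.673 ± 0.162 to 4.11 ± 2.25 CPM. It has near copies in the genome, among which counting may have split its reads. Serpinb6a (0.24), Serpinb1a (-0.28), Serpinb9 (-0.17), Serpinb8 (0.11) and Serpinb10, the neighbour of Serpinb2 (0.04), did not pass. The clade E gene Serpine3 was at 0.89 (edgeR adjusted p = 0.0525).

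Of 11 binding partners of the urokinase receptor, 8 rose and 0 fell, beside 22.1% and 19.7% of all genes, with a median of 1.30. The formyl peptide receptors Fpr2 and Fpr1, which guide neutrophils and monocytes, rose by 2.87 ± 0.31 and 2.74 ± 0.26 (edgeR adjusted p = 4.97e-05 and 2.06e-05). Itgam, the integrin chain CD11b of myeloid cells, rose by 2.41, Itga5, a fibronectin receptor chain, by 2.31, and Itgav, a vitronectin receptor chain, by 1.56. The formyl peptide receptors and Itgam are also expressed by neutrophils, and 8 of 8 neutrophil markers rose in these grafts with a median of 5.26. The part of these cells in the rises of this list was not tested. Vtn, the gene of vitronectin, was at -0.40 and did not pass.

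Of 13 substrates of plasmin or of its activators, 11 were tested, and 5 rose and 1 fell, with a median of 0.24. Of all genes 22.1% rose and 19.7% fell. Matrix metalloproteases led the list. Mmp13, a collagenase, rose by 3.69 ± 0.32 (edgeR adjusted p = 1.29e-05), and Mmp9, the gelatinase stored in neutrophil granules, by 3.55 ± 0.42 (edgeR adjusted p = 9.41e-05). Mmp3, stromelysin 1, rose by 1.31 and Mmp12, the macrophage elastase, by 1.04, though grafts and naive lungs overlapped at both. Tgfb1, whose latent product plasmin can release, rose by 1.06 ± 0.14. Pdgfd, a growth factor that urokinase can activate, fell by 1.05 (edgeR adjusted p = 0.0163). The fibrinogen genes Fga and Fgb were too low to be tested, and Fgg was at -0.53 without passing. Between the graft groups 0 tested genes of these lists were called.

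**Figure D5:**
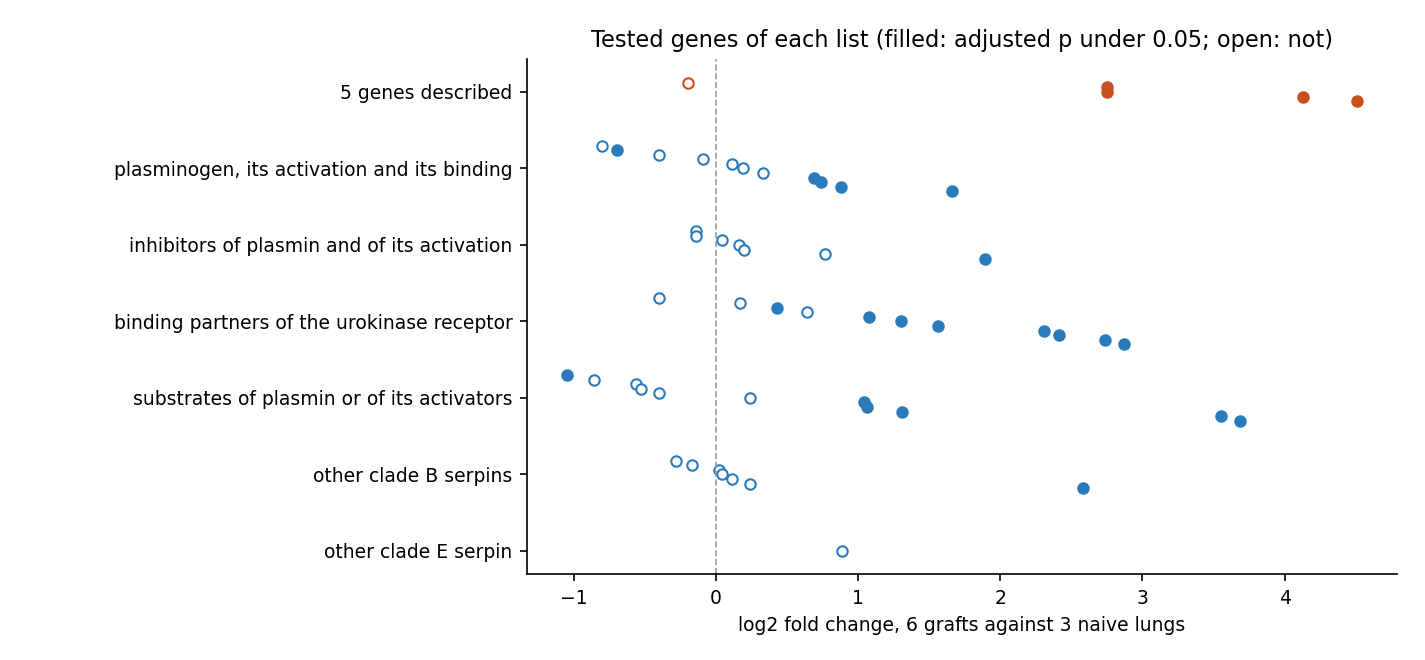
Log2 fold change of the 6 grafts against the 3 naive lungs (horizontal axis) for every tested gene of each list, with filled points for an adjusted p under 0.05. Of the 5 genes described, 4 lie between 2.75 and 4.51 and Serpine2 lies at -0.20, and among the inhibitors and other clade B serpins 1 gene each is filled.

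The genes whose pattern was most like that of each of the 5 were found by the root-mean-square (RMS) difference of log2 CPM, each gene centred on its own mean, among 12280 candidates. Over the 9 libraries Plat lay closest to Slc39a14, a zinc transporter (RMS difference 0.183), Abtb2 (0.199) and Batf, a bZIP transcription factor (0.208), beside a median of 1.41 over all candidates. Plaur lay closest to Maff, a small Maf factor (0.202), Slc2a6 (0.221) and Marcksl1 (0.237), beside a median of 1.98. Plau lay closest to Ampd3 (0.255), Il2ra, an interleukin-2 receptor chain (0.273), and Car13 (0.316), beside a median of 1.40. The RMS spread of Plau, Plat and Plaur around their own means was 1.36, 1.37 and 1.95, well above the distances to these genes. These genes were picked as the nearest of 12280 candidates, so their small distances are no test of a shared pattern. Serpine2, with a spread of 0.302, lay closest to Commd10 (0.078), Sh3bp4 (0.082) and Emc10 (0.089), beside a median of 0.453. Serpinb2 lay farther from the genes near it, which included Cd177, a surface protein of neutrophils (0.581), and Mmp25, a membrane protease of neutrophils (0.583), beside a median of 2.16.

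Over the 6 grafts alone, where the step from naive lungs plays no part, the nearest genes mostly differed. Slc39a14 (0.097) was again closest to Plat, followed by Ttc9 (0.128) and Schip1 (0.131), beside a median of 0.454. The genes near Serpinb2 included Nlrc4, an inflammasome sensor (0.292), and Abi3 (0.314), beside a median of 0.768. For Serpine2 the nearest were Bicc1 (0.034), Prkd1 (0.043) and Sh3bp4 (0.053), beside a median of 0.424. For Plaur they were H2-D1 (0.040), H2-T22 (0.054) and Med6 (0.061), beside a median of 0.325, and for Plau they were Apol10b (0.155), H2-Q7 (0.156) and H2-Q6 (0.161), beside 0.681. The H2 genes belong to a family of near-identical class I histocompatibility genes that differ between donor and recipient strain, so their counts are uncertain. The 5 genes were not close to each other over the 6 grafts: their distances ran from 0.396 between Plat and Plaur to 0.952 between Serpine2 and Serpinb2. The smallest of these equals the RMS spread of Plat around its own mean in the grafts (0.396) and exceeds that of Plaur (0.209).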

How the data were processed

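RNA of whole left lungs was sequenced in 9 libraries, 3 per group, and each library entered the group of its title. The authors deposited 3 tables of 6 libraries each. Per the file headers they hold read counts per gene, FPKM, and the authors' own log2 fold change and adjusted p-value. The read counts were assumed to be without normalization. Per the submitters' processing notes the build was mm10 and the tools included STAR and HTSeq, with DESeq2, edgeR and STAR-Fusion also named, without versions or roles. Neither the annotation nor the strand setting of the counting is given in the sources used here. The deposited FPKM matched counts divided by gene length and library total. The 18 columns of the authors' normalized values were not used.

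Counts were joined by gene identifier, and the 9 repeated libraries held 0 differing values. The lowest chi-square per degree of freedom between 2 libraries was 15.0, so none repeated another within sampling noise. Testing was two-sided, by quasi-likelihood in edgeR 4.0.16 (R 4.3.3), after TMM scaling and filterByExpr, which kept 15834 genes, in 1 fit of all 9 libraries with a mean per group. A call needed an adjusted p (Benjamini-Hochberg, over all genes) under 0.05. Intervals of 95% use the t quantile at the fit's degrees of freedom (10.6). The script was tested on simulated data. No label says that the libraries of a group came from separate animals, so p-values measure only the spread between these samples, which may be technical. Both the number of libraries and, for Serpinb2 in naive lungs, the few reads limit precision. A count of 0 allows up to 0.149 CPM in the library with the smallest scaled size, taking 3 reads as the floor, for counting error only.

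The genes, lists, tests and motifs were chosen with earlier results of these data known. Named genes were the 5 described, Plg, the 5 of each list with the smallest adjusted p in all grafts, and the 3 most alike by RMS difference (log2 CPM with a prior count of 2, mean of at least 2 CPM, no predicted genes). Lrp1, Vtn, Pdgfd, Serpinf2, Serpinb10 and the fibrinogen genes were named in addition, after their values were seen. Some genes, of the pathway and among the most alike, are not reported here. The alternatives were 2 other scalings, DESeq2 1.42.0, no filter, each library left out, a replicate block, fits of fewer groups and the tables' grouping. A fit without the 2 disputed grafts was added after seeing the data. Of 12 lists of cell markers fixed for the check of cell types, those not named in the results had summed levels of 656 to 891 CPM in naive lungs and 662 to 1410 CPM in grafts (alveolar macrophages), 3070 to 3570 and 2070 to 4150 (alveolar type 1 cells), 16100 to 26600 and 11900 to 24700 (club and ciliated cells) and 2.60 to 4.86 and 2.05 to 6.14 (mast cells and basophils).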

Additional observations from a re-analysis of the deposited data

Results flagged for a closer look

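Among the 6 grafts taken as 1 set, Serpinb2 in shock replicate 1, at 16.6 CPM, stood apart from the other 5, which ran from 3.46 to 6.38 CPM. The gap was 0.778 of the whole range, above what Dixon's test allows for 6 samples. In FPKM within a library, Plaur exceeded Plau by 45.8 times in cold-ischemia replicate 3, against 16.2 to 25.9 times in the other grafts (gap 0.672 of the range). The summed activators exceeded the summed serpin genes by 11.0 times in shock replicate 2, against 2.91 to 5.71 times in the other grafts (gap 0.654 of the range). Of 9 measures tested in this way 3 stood out. Chance alone marks about 1 in 20 where the 6 samples come from a single normal distribution. The measures share genes and the set joins both graft groups, so that share is no strict yardstick here.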

How the results depend on the processing

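Against naive lungs, the rises of Plau, Plat, Plaur and Serpinb2 kept their direction and passed in all 17 alternatives of each comparison. For all grafts, leaving out 1 library at a time gave 2.46 to 2.90 for Plau, 2.61 to 3.06 for Plat, 4.04 to 4.20 for Plaur and 3.99 to 5.16 for Serpinb2. Serpine2 in shock grafts passed with upper-quartile scaling (-0.62) and without the 2 disputed grafts (-0.65), and ran from -0.65 to -0.20 with 1 library left out. In cold-ischemia grafts it lay below 0 with upper-quartile scaling (-0.18) and no filter (-0.01), and between -0.05 and 0.06 with 1 library left out. Between the graft groups, Plau (-0.13) and Plaur (-0.15) changed sign with the tables' grouping. Plaur was also at -0.01 without the disputed grafts and ran from -0.02 to 0.32 with 1 library left out. Genes called between the graft groups numbered 8 with DESeq2, 124 with the tables' grouping and 39 without the disputed grafts, and 0 to 0 with 1 library left out. The cause was not tested. Upper-quartile scaling lowered the median of all genes in all grafts from -0.05 to -0.25 and the share of higher calls from 52.8% to 34.8% (57.1% to 39.3% in cold-ischemia grafts, 55.1% to 36.5% in shock grafts).

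The replicate block gave 4296, 5801, 0 and 6111 calls in the 4 comparisons, against 4846, 6319, 0 and 6620 without it, and changed the call of none of the 5 genes. Correlations of deviations from the group means ran from -0.394 to 0.096 between same-numbered libraries and from -0.359 to 0.32 between different-numbered ones. Deviations from a mean of 3 libraries are tied to each other, so these values cannot decide whether the numbers pair lungs. Here the numbers served as names only. Of 2448 counts of list members under an alternative, 2211 stayed within 1.5 times of the reported count. For all grafts, upper-quartile scaling gave 2 lower genes in place of 1 of plasminogen and its binding, 2 in place of 1 of the substrates, 2 in place of 0 of the clade B serpins and 7 higher partners of the receptor in place of 8. Serpine3 passed with DESeq2's size factors and with DESeq2's test.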
